A study of Mus musculus with 10 samples.

Results

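The nuclear co-factors of beta-catenin were followed in mouse colon tumours, through every probe set annotated to one of 8 genes and to no other gene. The genes were Bcl9, Bcl9l, Pygo1, Pygo2, Ctnnb1, Ldb1, Med12 and Chd8, and they held 16 of the 45101 probe sets on the array. Bcl9l and Ctnnb1 had 3 probe sets each, Chd8 had 4, Bcl9 had 2 and the other genes 1 each. Tumours labelled vil-Cre-Bcl9-/-/Bcl9l-/- (KO, 5 tumours of 3 mice) were compared with tumours labelled wildtype (WT, 5 tumours of 2 mice). All mice shared a mixed background of 129SvEv, C57BL/6 and DBA/2, and all were exposed at 6 to 8 weeks of age to dimethylhydrazine (44 mg/kg), a precursor of the carcinogen azoxymethane, and then to 2% dextran sulfate sodium in drinking water for 7 days, which inflames the colon. Tumour tissue was cut out by laser, and the RNA of each tumour was read on 1 Affymetrix whole-genome array. KO tumours 2 and 6 came from mouse 02, tumours 9 and 11 from mouse 04 and tumour 7 from mouse 99, while WT tumours 1, 3, 12 and 13 came from mouse 72 and tumour 8 from mouse 82. In vil-Cre mice the recombinase is driven by the villin promoter, which is active in gut epithelium, so stromal and immune cells in the dissected tissue would keep intact genes.

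Beta-catenin, encoded by Ctnnb1, carries the Wnt signal into the nucleus, where it has no DNA contact of its own and binds TCF/LEF factors at Wnt target genes. Bcl9 and Bcl9l are adaptors that hold beta-catenin with one part and a Pygo protein with another, and Pygo proteins read methylated histone tails through a PHD finger. Ldb1 bridges enhancer-bound factors in the same assembly, Med12 belongs to the kinase module of Mediator, and Chd8 is a chromatin remodeller that binds beta-catenin and was described as a brake on its activity. In colon tumours this machinery is driven by stabilised beta-catenin.

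Array medians, which RMA brings close together, were 6.44 to 6.47 log2 in KO and 6.43 to 6.50 in WT tumours. The gap between 3′ and 5′ controls for Actb and Gapdh, a sign of RNA integrity, was 0.71 to 1.17 log2 in KO and 0.78 to 1.14 in WT. Epithelial markers were mostly strong in both groups. Epcam, at 13.59 ± 0.07 log2 in KO and 13.58 ± 0.09 in WT (SD, n = 5 tumours each), differed least. Krt20 varied most, from 8.14 to 10.34 in KO and from 7.31 to 11.32 in WT. Of the 9 markers, 7 were higher in KO and 0 passed by limma. An unadjusted p under 0.05 was found for 2, Cdh1 at 0.34 and Vil1 at 0.69. The summed signal of the epithelial list was 15.80 to 15.95 log2 in KO and 15.46 to 15.99 in WT, and that of 8 fibroblast markers 12.93 to 13.87 and 12.80 to 13.92. Of 9 lymphocyte markers 6 rose in KO tumours, where the list's summed signal was 9.58 to 10.21 log2 against 8.34 to 8.90 in WT. Of 8 myeloid markers 1 rose (12.74 to 13.04 against 12.33 to 13.46 summed), and 0 of 6 smooth muscle and 0 of 6 endothelial markers passed by limma, with 0 and 1 at an unadjusted p under 0.05. Vil1, whose promoter drives the Cre, read 11.81 ± 0.14 in KO and 11.13 ± 0.44 in WT (SD, n = 5 each, limma adjusted p = 0.0853). RMA signals have no zero, so no marker can be said to be absent. The higher lymphocyte signal in KO tumours stands beside every comparison below, and its part in the results was not tested. In dissected tissue, fewer cells of a type and less RNA per cell cannot be told apart.

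None of the 16 co-factor probe sets passed the test between KO and WT tumours. Of all 45037 probe sets tested, 4.36% passed (limma, adjusted p under 0.05, tumours of a mouse treated as related), 2.05% lower and 2.31% higher in KO. Of the co-factor probe sets 4 had an unadjusted p under 0.05, which is 25% of them beside 18.2% of all probe sets. Differences, KO minus WT, lay between −0.55 and 0.32 log2, with 10 below 0, 6 above, and a median of −0.13 beside −0.01 over all probe sets. The median standard error was 0.137 log2 for the co-factors and 0.145 for all probe sets. In 15 of the 16 the 95% confidence interval of the difference lay inside a 2-fold change in either direction. Of all 45037 probe sets, 38781 had such an interval, and the exception among the co-factors was Pygo1. Adjusted p-values ran from 0.185 to 0.840.

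**Figure D1:**
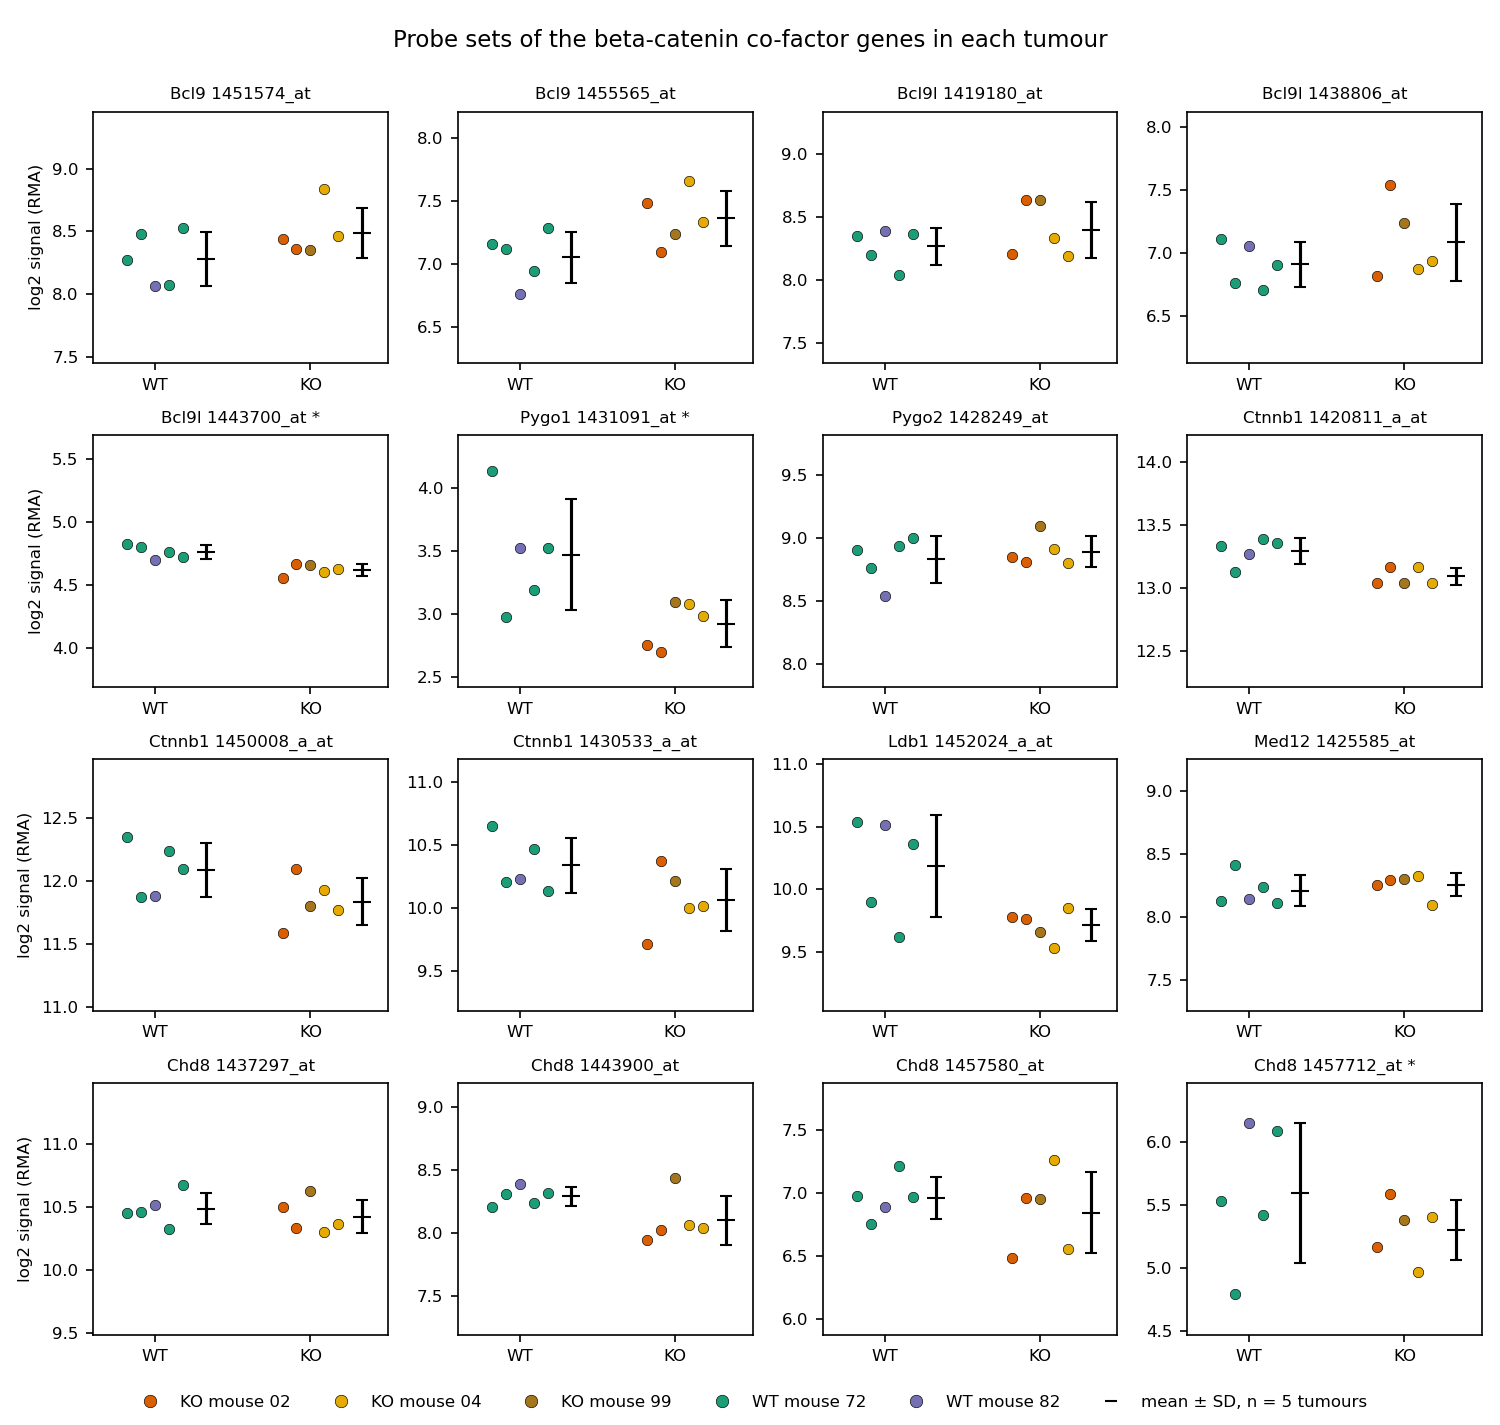
Log2 RMA signal of each co-factor probe set in each tumour, WT at the left and KO at the right of each panel, every panel spanning 2 log2 units; points are tumours coloured by mouse, bars are mean ± SD (n = 5 tumours), and an asterisk marks a probe set below the level filter of 5.82 log2. The groups overlap in every panel except Bcl9l 1443700_at, and Ldb1 and Pygo1 show the widest gap between means.

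The adaptor genes named in the genotype, Bcl9 and Bcl9l, were read by 5 probe sets, and none of them was lower in KO past the threshold. For Bcl9, probe set 1451574_at read 8.44, 8.36, 8.35, 8.84 and 8.47 log2 in KO tumours 2, 6, 7, 9 and 11, and 8.27, 8.48, 8.07, 8.07 and 8.53 in WT tumours 1, 3, 8, 12 and 13. The groups overlapped, and only KO tumour 9 lay above all WT tumours. The difference was 0.21 ± 0.14 log2 (SE, 95% interval −0.09 to 0.52, adjusted p = 0.463). The second Bcl9 probe set, 1455565_at, read 7.48, 7.09, 7.24, 7.66 and 7.33 in the same KO tumours and 7.15, 7.11, 6.76, 6.94 and 7.28 in WT, with KO tumours 2, 9 and 11 above all WT tumours. Its difference of 0.32 ± 0.14 (interval 0.01 to 0.62, adjusted p = 0.256) was the only one of the 5 with an unadjusted p under 0.05, and the KO mean was the higher.

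For Bcl9l, probe set 1419180_at read 8.21, 8.63, 8.64, 8.33 and 8.19 log2 in KO tumours and 8.35, 8.20, 8.39, 8.04 and 8.37 in WT, which overlapped. Probe set 1438806_at read 6.82, 7.54, 7.24, 6.88 and 6.94 against 7.11, 6.76, 7.06, 6.70 and 6.90. In both, KO tumours 6 and 7 lay above all WT tumours and the other KO tumours among them. Their differences were 0.13 ± 0.13 and 0.17 ± 0.16 (intervals −0.16 to 0.41 and −0.18 to 0.52). Probe set 1443700_at lay under the level filter (5.82 log2, under which 40% of the array's probe sets lie). It read 4.55, 4.67, 4.66, 4.60 and 4.63 in KO and 4.83, 4.81, 4.70, 4.76 and 4.72 in WT, a separation without overlap that 6.9% of all probe sets showed. The size was small, −0.14 ± 0.08 (interval −0.31 to 0.03, adjusted p = 0.379). Across the 5 probe sets the lowest bound of any interval was −0.31, so a 2-fold lower signal lay outside all 5 intervals.

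Probe sets of a targeted gene can read parts of the transcript on either side of a deletion, so the signals of 1 gene were also set against each other. For each tumour the difference between 2 probe sets of the gene was taken. KO and WT tumours were compared by an exact two-sided permutation test over the 252 splits of the tumours. It took tumours as independent, although several share a mouse. For Bcl9l 1419180_at and 1443700_at this within-tumour difference was larger in KO than in WT by 0.27 log2 (exact p = 0.0476, adjusted p = 0.516 over 13 pairs), a value that rests on 1443700_at, which lies under the level filter. The other Bcl9l pair with 1443700_at differed by 0.32 between the groups (exact p = 0.0794), and the 2 Bcl9 probe sets by −0.10 (exact p = 0.214). None of the 13 pairs within Bcl9, Bcl9l, Ctnnb1 and Chd8 passed the exact permutation test after adjustment. In 1 pair the unadjusted p was under 0.05. With 252 splits and 13 pairs, a pair alone could not pass whatever its values. The lack of a pass therefore does not show that probe sets of a gene moved alike. The labels do not say which part of either gene was deleted and probe sequences were not used here, so these signals check nothing about the genotype, and KO and WT stand for the labels.

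Pygo1 and Pygo2 encode the PHD finger partners of the Bcl9 adaptors, and neither probe set passed. Pygo1 (1431091_at) read 2.75, 2.70, 3.10, 3.08 and 2.99 log2 in KO tumours and 4.14, 2.98, 3.52, 3.19 and 3.53 in WT. The whole range lies far under the level filter, WT tumour 1 is the highest, and WT tumour 3 falls among the KO tumours. The difference of −0.55 ± 0.21 was the largest of the 16 in size (interval −1.002 to −0.09, limma adjusted p = 0.185), with an unadjusted p under 0.05. It was −1.26 among tumours with unique sample numbers 254 to 258, where WT tumour 1 stands alone against 4 KO tumours. Among numbers 191 to 229, with 1 KO and 4 WT tumours, it was −0.20. Pygo2 (1428249_at) read 8.84, 8.80, 9.09, 8.91 and 8.80 in KO and 8.90, 8.76, 8.54, 8.94 and 9.0 in WT. These overlapped nearly throughout, with a difference of 0.07 ± 0.11 (interval −0.17 to 0.32, adjusted p = 0.797), and WT tumour 8 was the lowest.

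All 3 probe sets of Ctnnb1 had a lower mean in KO, and none passed. The brightest, 1420811_a_at, read 13.04, 13.17, 13.04, 13.17 and 13.04 log2 in KO and 13.33, 13.13, 13.27, 13.39 and 13.35 in WT. Only WT tumour 3 lay among the KO tumours, and the difference was −0.20 ± 0.09, a 1.15-fold lower signal (interval −0.39 to −0.01, limma adjusted p = 0.245). Probe sets 1450008_a_at and 1430533_a_at differed by −0.24 ± 0.14 and −0.27 ± 0.15, and neither passed (adjusted p = 0.383 and 0.390). Probe set 1450008_a_at ran from 11.59 to 12.09 log2 in KO and from 11.88 to 12.35 in WT, and 1430533_a_at from 9.71 to 10.37 and from 10.13 to 10.65, so both overlapped. In both, KO tumours 2 and 6 of mouse 02 were the lowest and the highest KO tumours, 0.51 and 0.66 log2 apart, so the spread within 1 mouse exceeded the difference between the groups. The difference of 1420811_a_at stayed between −0.24 and −0.18 in 30 alternative analyses, 1 of which averaged all 3 Ctnnb1 probe sets. The smallest limma adjusted p-value among them was 0.123, and the difference was −0.20 over mouse means.

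Ldb1 had the largest difference among the 13 probe sets above the level filter. Probe set 1452024_a_at read 9.78, 9.76, 9.66, 9.53 and 9.86 log2 in KO tumours and 10.54, 9.90, 10.52, 9.62 and 10.36 in WT. KO tumours lay close together, whereas WT tumours fell apart: tumours 1, 8 and 13 were well above every KO tumour, tumour 3 just above them and tumour 12 among them. The difference was −0.48 ± 0.19, a 1.40-fold lower signal (interval −0.89 to −0.07, limma adjusted p = 0.198). Tumours of WT mouse 72 alone spanned 0.92 log2, more than that difference. Without WT tumour 12, which has the lowest WT value, the difference was −0.61 and passed (adjusted p = 0.0435). Within the lower and upper ranges of sample numbers it was −0.42 and −0.81, each with 1 tumour in a group, and −0.64 in a fit on all tumours with a term for the range (adjusted p = 0.811, 0.0823 and 0.155). Averaged by mouse, Ldb1 was 9.66 to 9.77 in the 3 KO mice and 10.11 and 10.52 in the 2 WT mice, a difference of −0.60 (adjusted p = 0.150).

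No probe set of Med12 or Chd8, the Mediator and chromatin members, passed. Med12 (1425585_at) read 8.25, 8.29, 8.30, 8.33 and 8.10 log2 in KO and 8.13, 8.41, 8.14, 8.24 and 8.11 in WT, with a difference of 0.05 ± 0.09 (interval −0.16 to 0.26, adjusted p = 0.840). The brightest Chd8 probe set, 1437297_at, read 10.50, 10.34, 10.63, 10.30 and 10.37 in KO and 10.45, 10.46, 10.51, 10.33 and 10.67 in WT. Its groups overlapped fully and its difference was −0.06 ± 0.10 (interval −0.29 to 0.17, adjusted p = 0.824), a value whose sign turned to 0.02 in a fit with a term for the range of sample numbers. The other Chd8 probe sets, 1443900_at, 1457580_at and 1457712_at, differed by −0.19, −0.11 and −0.31 (adjusted p = 0.402, 0.788 and 0.585). Probe set 1443900_at ran from 7.94 to 8.44 log2 in KO and 8.20 to 8.39 in WT, with KO tumour 7 alone above all WT tumours and the other KO tumours below them. The KO and WT ranges of 1457580_at were 6.49 to 7.26 and 6.75 to 7.21, and those of 1457712_at 4.97 to 5.59 and 4.79 to 6.15. The latter lay under the level filter, and its WT tumours of mouse 72 spanned 1.30 log2.

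**Figure D2:**
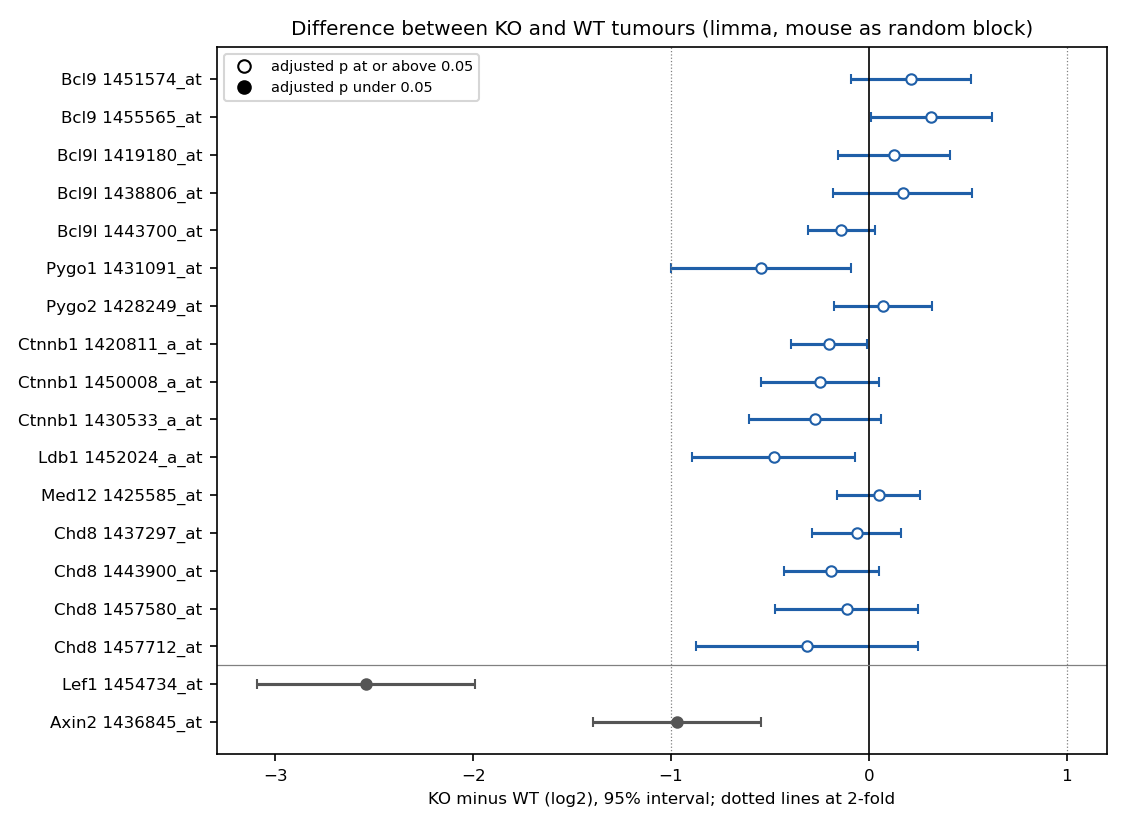
Difference between KO and WT tumours in log2 (points) with its 95% interval (bars) for the 16 co-factor probe sets and, below the line, for Lef1 and Axin2; filled points passed the adjusted threshold of 0.05 and dotted lines mark a 2-fold change. The co-factor intervals lie inside the dotted lines except for Pygo1, while Lef1 at −2.54 and Axin2 at −0.97 are filled.

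**Figure D3:**
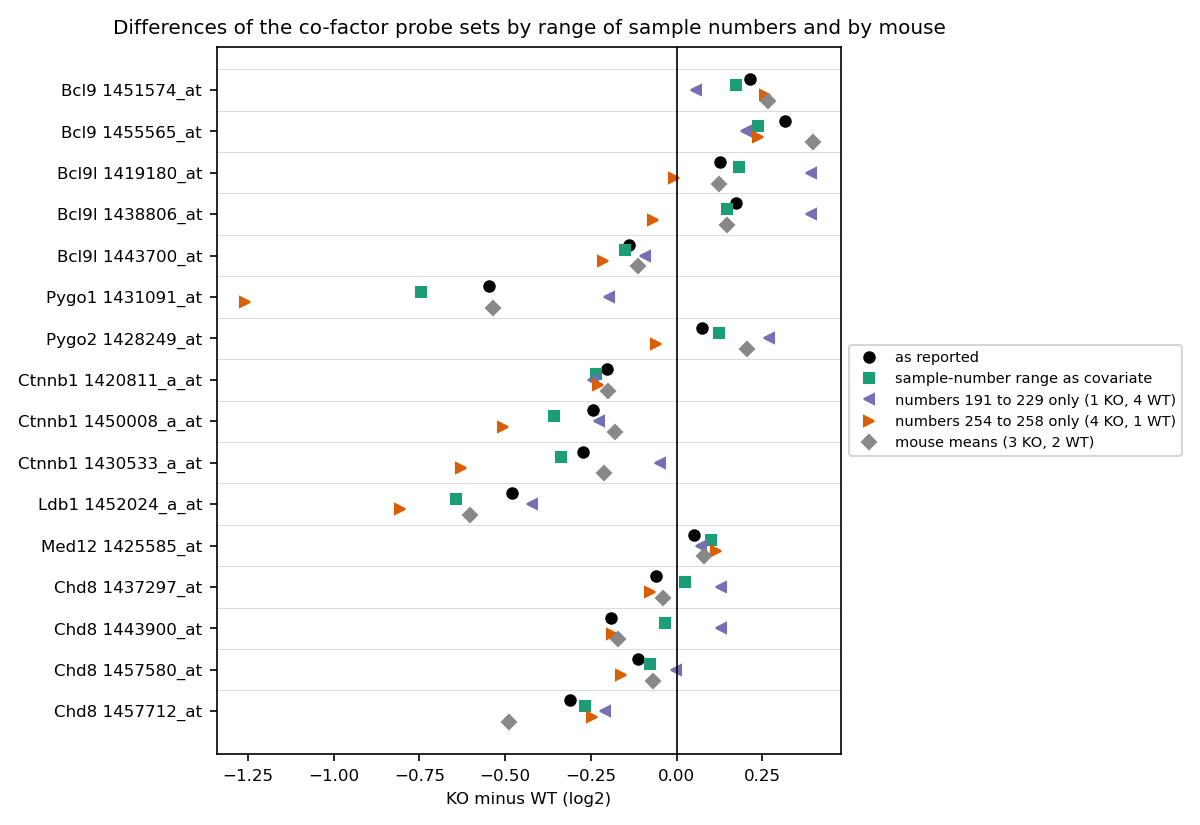
Difference between KO and WT tumours in log2 for each co-factor probe set as reported, with a term for the range of sample numbers, within each range alone, and over mouse means. The Ldb1 and Ctnnb1 probe sets stay below 0 and those of Bcl9 above 0 in all 5, Pygo1 ranges from −1.26 to −0.20, and the single ranges rest on 1 tumour in a group.

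Levels and differences were then read for other genes that act at the same step, each by its brightest probe set, where 4.85% of 18193 genes passed, 2.05% lower and 2.8% higher in KO, and 19.4% had an unadjusted p under 0.05. TCF/LEF genes encode the DNA-binding partners of beta-catenin, and Lef1 was the one of 3 measured that fell. It read 7.72, 7.55, 7.94, 8.53 and 8.33 log2 in KO and 10.94, 9.93, 10.77, 10.25 and 10.85 in WT, without overlap. The difference was −2.54 ± 0.25, a 5.83-fold lower signal (adjusted p = 0.000443). Tcf7l2 and Tcf7l1 differed by 0.26 and 0.55 (adjusted p = 0.376 and 0.548), and Tcf7 was not analysed here. Members of a complex with Ldb1 or Bcl9 at enhancers, the Ssbp, Runx, Arid1 and Smarca4 genes, had 0 of 8 past the threshold by limma and 1 with an unadjusted p under 0.05, Runx3 at 0.54 (adjusted p = 0.266). Ssbp2 and Ssbp4, which encode binding partners of Ldb1, differed by −0.18 and 0.13. The other subunits of the Mediator kinase module had 0 of 5 past the threshold and 1 at an unadjusted p under 0.05, Med13 at −0.38 (adjusted p = 0.136), beside Cdk19 at 0.15 and Med13l at −0.04.

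Further co-activators that bind the tail of beta-catenin, among them acetyltransferase, Paf1 complex and histone methyltransferase genes, had 0 of 14 past the threshold by limma, with 1 at an unadjusted p under 0.05. Their median difference was −0.01 log2, and those with the smallest p were Kmt2a at 0.36, Paf1 at −0.21 and Trrap at −0.18. Nuclear inhibitors and Groucho co-repressors, which silence TCF/LEF sites, had 0 of 9 past the threshold but 4 at an unadjusted p under 0.05, and these went both ways. Tle3 differed by −0.63 ± 0.18 (adjusted p = 0.0732), Hdac1 by −0.31 (adjusted p = 0.109), Tle1 by −1.04 ± 0.34 (adjusted p = 0.122) and Tle4 by 0.83 ± 0.33 (adjusted p = 0.212). Tle1 passed over mouse means (−1.13, adjusted p = 0.0326) and without WT tumour 12 (−1.30, adjusted p = 0.0213). Tle3 passed without KO tumour 2 (−0.74, adjusted p = 0.0321), without mouse 02 (−0.82, adjusted p = 0.0392) and with a term for the range of sample numbers (−0.83, adjusted p = 0.0484). Close relatives of the co-factor genes had 0 of 6 past the threshold and 1 at an unadjusted p under 0.05, Chd6 at −0.63 (adjusted p = 0.154). Jup, the relative of beta-catenin found in junctions, differed by −0.18 and Ldb2 by −0.29. In all, 1 of the 45 partner genes outside the target list passed and 9 (20%) had an unadjusted p under 0.05, and their median difference was −0.04 beside 0.0011 over all genes. Chd6 passed without WT tumour 3, and Tle3 also with array weights. Within sample numbers 254 to 258 WT tumour 1 stands alone, and within 191 to 229 KO tumour 7 stands alone. Which partner genes, Lef1 included, passed or missed the threshold in those fits is therefore not read as a result about the genes.

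Among 12 Wnt target genes, listed as readouts of the machinery, 6 fell and 1 rose, with a median of −0.74. Differences were below 0 in 7 and above 0 in 5, and 9 (75%) had an unadjusted p under 0.05 by limma. Of the 5 that did not pass, Rnf43 differed by −0.51, and Cd44, Ascl2, Sox9 and Ccnd1 by 0.58, 0.38, 0.18 and 0.14. Axin2, a feedback inhibitor, read 11.38, 11.54, 10.89, 11.46 and 11.64 in KO and 12.68, 11.88, 12.62, 12.14 and 12.35 in WT, a difference of −0.97 ± 0.19 (adjusted p = 0.0188). WT tumour 3, which lay among or next to the KO tumours in Ctnnb1, Pygo1 and Ldb1, was also the lowest WT tumour for Lef1 and Axin2. It had the lowest summed fibroblast (12.80 log2), smooth muscle (10.25), endothelial (9.25) and myeloid (12.33) marker signal of the 10 tumours, and the part of this in its values was not tested. Without it the differences were −0.24 for Ctnnb1 1420811_a_at, −0.66 for Pygo1 1431091_at and −0.55 for Ldb1 1452024_a_at, none of which passed (limma adjusted p = 0.152, 0.0867 and 0.153), while Lef1 and Axin2 still passed. The fitted signals of Nkd1, Sp5, Lgr5, Notum and Znrf3 were lower by 9.01-fold, 7.28-fold, 5.82-fold, 2.83-fold and 2.59-fold, and that of Myc was higher by 0.76 log2. With tumours averaged by mouse, Axin2, Notum and Myc missed the threshold (adjusted p = 0.0941, 0.0988 and 0.0800), as did Notum and Znrf3 with a term for the 3′ to 5′ gap (adjusted p = 0.0668 and 0.0692). With 1 tumour left out, Znrf3 missed it without KO tumour 6 or 11 or WT tumour 8 or 13, Notum without KO tumour 6 or WT tumour 13, and Myc without WT tumour 1 or 13 (adjusted p = 0.0502 to 0.0790). Over all lists 8 genes passed, whereas 5 passed without mouse 04, 5 without WT tumour 13 and 3 without mouse 72, which leaves 1 WT tumour. Without mouse 02 or 04 Axin2 missed the threshold (limma adjusted p = 0.0621 and 0.0519), as did Znrf3 (0.0934 and 0.0809). Notum also missed it without mouse 02 (0.109) and Myc without mouse 04 (0.0561). Without mouse 72 Axin2, Lgr5, Sp5, Notum and Myc missed it, at −1.25, −2.26, −2.81, −1.40 and 0.68 log2. Lef1 passed in each of these fits without a tumour or mouse. The targets were chosen with results on these arrays known and serve only as a scale for the co-factors.

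**Figure D4:**
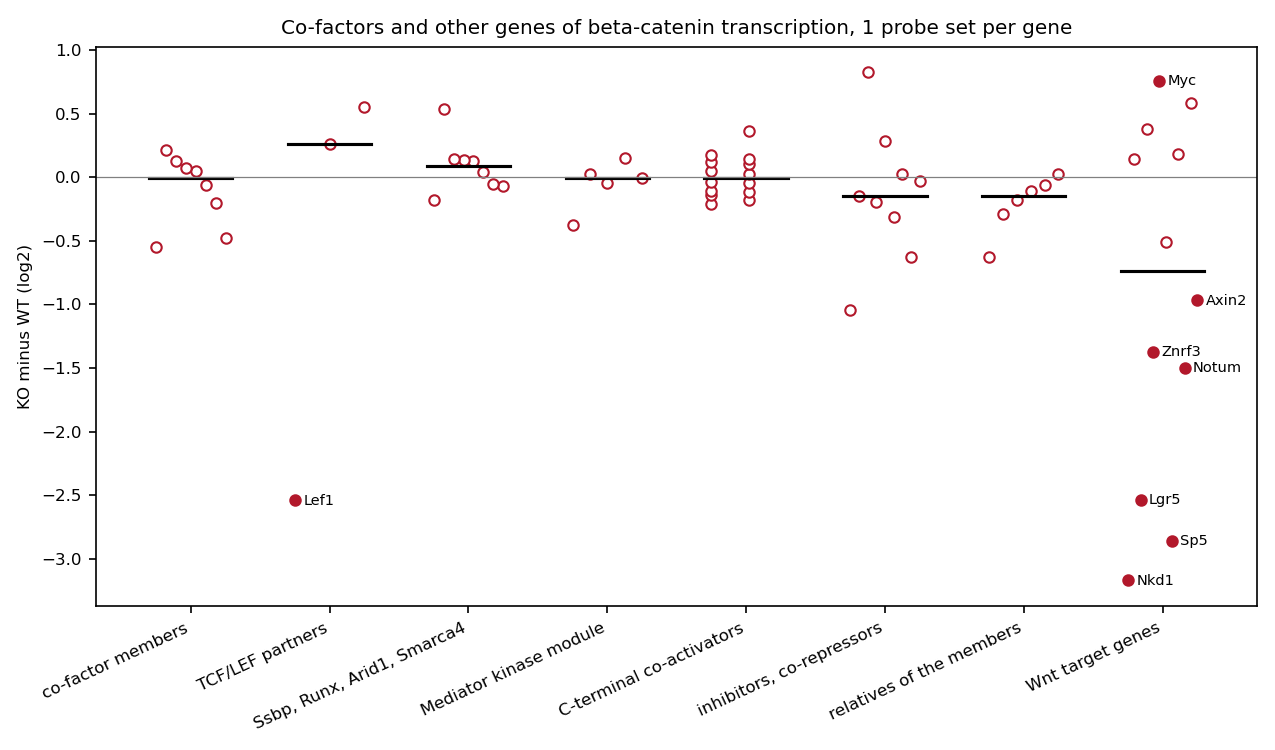
Difference between KO and WT tumours in log2 for each gene, read by its brightest probe set, in the 8 co-factors and in 7 lists of genes of beta-catenin transcription; filled points passed the adjusted threshold of 0.05 and black lines are medians. The filled points are Lef1 and 7 Wnt target genes, and no co-factor is filled.

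Among 12249 other genes above the level filter, those most like a co-factor over the 10 tumours were ranked by Pearson r, as a description of these tumours, which come from 5 mice. For Ctnnb1 1420811_a_at they were Cfl2 (r = 0.95), 6820431F20Rik (0.94) and Ptbp3 (0.94). For Bcl9 1451574_at they were Tmem254a (r = 0.90), Kdelr1 (0.89) and Atp2c2 (0.86), for Bcl9l 1419180_at Fgd2 (0.86), Scg3 (0.84) and Dnm2 (0.82), and for Pygo2 BC005624 (0.93), Ereg (0.88) and Aida (0.88). No co-factor was among them.

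Windows around the transcription start were searched for Lef1 and for the co-factor genes other than Bcl9l, which had no window. For 2 genes the window with a match is printed. Lef1 was taken because it was the one partner gene that fell, and Ldb1 because it had the largest difference of a co-factor above the level filter. The core of the TCF/LEF site, CTTTGA or its reverse complement TCAAAG, was searched on both strands from 250 bases before to 50 bases after each RefSeq start (build GRCm38.p6), and is in capitals. It occurs in 16.0% of 32851 such windows. Of 12 windows of 7 co-factor genes, 1 held it, the Ldb1 window at chr19:46045262-46045561 on the minus strand. Lef1 has 4 windows and 1 held it, with 2 matches, at chr3:131156044-131156343 on the plus strand. The other Lef1 windows, which begin at chr3:131110047, 131110073 and 131112541, held no match. A match is a description of these letters, and no binding was measured.
Ldb1: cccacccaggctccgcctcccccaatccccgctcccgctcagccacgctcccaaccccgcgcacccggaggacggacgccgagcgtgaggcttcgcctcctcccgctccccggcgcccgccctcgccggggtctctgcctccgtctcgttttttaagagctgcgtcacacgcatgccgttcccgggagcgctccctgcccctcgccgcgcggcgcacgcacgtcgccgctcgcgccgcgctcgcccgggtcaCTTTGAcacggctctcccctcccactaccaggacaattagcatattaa
Lef1: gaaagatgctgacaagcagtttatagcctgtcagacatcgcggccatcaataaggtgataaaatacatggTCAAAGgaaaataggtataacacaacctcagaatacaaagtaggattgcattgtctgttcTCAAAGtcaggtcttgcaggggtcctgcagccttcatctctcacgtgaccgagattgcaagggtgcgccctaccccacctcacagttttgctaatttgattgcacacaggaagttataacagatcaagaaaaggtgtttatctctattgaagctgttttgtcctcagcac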

How the data were processed

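Each of 10 tumours was read on 1 array. Values were deposited by the authors as log2 signals, made with RMA per the submitters' processing notes (version not given in the sources used here). RMA brings arrays to a common distribution, so a change shared by most genes would not show. The labels' protocols describe 30 ng of RNA amplified from 14 µm sections and speak of pooling a mouse's samples, although some mice have more than 1 array; arrays were taken as single tumours. Their number limits the precision.

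Of 45101 probe sets 64 controls were left out and the other 45037 fitted with limma 3.58.1 (R 4.3.3, statmod 1.5.0), mice entering as a random block (consensus correlation 0.0553), with Benjamini-Hochberg adjustment over all of them and a threshold of 0.05. The block moves fitted differences slightly away from differences of means. The fit was also run on simulated data with the mouse correlation set near the fitted value. That run does not show how the fit behaves if tumours of a mouse are more alike. Of the probe sets, 34945 had 1 gene symbol, 932 several and 9160 none, and 34741 symbols were updated through Entrez identifiers (GRCm38.p6). List genes were read by their brightest probe set; probe sets of 1 gene were compared by exact permutation tests. The p-values describe the spread between these tumours, several of which share a mouse. Alternatives covered the block, mouse means, ranges of sample numbers, level filters, probe set choice, normalisation, variance, RNA quality and left-out tumours or mice.

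Values by tumour were given for all probe sets of Bcl9, Bcl9l, Pygo1 and Pygo2 and the brightest of other members; list genes were named if past the threshold, otherwise the 3 with the smallest p, and the 3 genes most like a member by r. Tle4, Tcf7l1, Tcf7l2, Rnf43, Cd44, Ascl2, Sox9, Ccnd1, Epcam, Cdh1, Krt20 and Vil1 were added after values were seen. Members and lists were chosen with earlier results of these data known.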

Additional observations from a re-analysis of the deposited data

Results flagged for a closer look

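In 32 groups of 5 tumours (16 probe sets in KO and WT), 2 held a tumour far from the others relative to the group's range, where chance alone gives about 1 in 20. Bcl9 1451574_at was at 8.84 log2 in KO tumour 9, above the other KO tumours at 8.35 to 8.47. Chd8 1443900_at was at 8.44 in KO tumour 7, above the other KO tumours at 7.94 to 8.06, and KO tumour 7 is the one KO tumour in the lower range of sample numbers.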

How the results depend on the processing

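No paired analysis was possible because KO and WT tumours share no replicate number and each mouse has 1 genotype. Not every alternative tested all 16 co-factor probe sets. The level filters kept 13 and 11, and 1 probe set per gene above the filter kept 7, each without Pygo1. No co-factor tested passed in 28 of 30 alternatives. In the other two, 1 passed: Pygo1 among sample numbers 254 to 258, and Ldb1 without WT tumour 12. Leaving out tumours or mice gave 0 to 1. List genes past the threshold numbered 3 to 9 when tumours or mice were left out, against 8. No probe set pair passed in any alternative with a test (all exact permutation). None could have passed over mouse means, where the test cannot go below 0.1, or without mouse 72. In the other alternatives a pair alone could not have passed after adjustment, so these fits do not bear on the pairs. Some signs turned, none of a value past the threshold, and the cause was not tested. With a term for the range of sample numbers, Chd8 1437297_at was at 0.0246. Among numbers 191 to 229, Chd8 1437297_at and 1443900_at were both at 0.13. Among 254 to 258, Bcl9l 1419180_at was at −0.0073, Bcl9l 1438806_at at −0.0678 and Pygo2 at −0.0611. Over mouse means, Ctnnb1 1420811_a_at minus 1450008_a_at was at −0.0228. With a tumour or mouse left out, Pygo2 ran from −0.0088 to 0.36 and Chd8 1437297_at from −0.11 to 3.06e-05. The pairs that turned ran, for Bcl9l 1419180_at minus 1438806_at, from −0.0816 to 0.0095. For Ctnnb1 they ran from −0.14 to 0.0945 (1420811_a_at minus 1450008_a_at), from −0.0064 to 0.14 (1420811_a_at minus 1430533_a_at) and from −0.0193 to 0.13 (1450008_a_at minus 1430533_a_at). For Chd8 they ran from −0.0534 to 0.19 (1437297_at minus 1457580_at), from −0.25 to 0.0395 (1443900_at minus 1457580_at), from −0.0127 to 0.56 (1443900_at minus 1457712_at) and from −0.0088 to 0.81 (1457580_at minus 1457712_at). These pair ranges leave out the untested comparisons within a range of sample numbers, where further signs turned. Over all alternatives the pair Bcl9 1451574_at minus 1455565_at ran from −0.18 to 0.0196. Bcl9l 1419180_at minus 1438806_at ran from −0.0816 to 0.0604, and Ctnnb1 1420811_a_at minus 1430533_a_at from −0.20 to 0.40. Fits within a range of sample numbers, or without mouse 72, have 1 tumour in a group, assumed to vary like the others. With 5 mice in all, an exact test over mice cannot go below 0.1, and 3 of the 16 probe sets lie under the level filter.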
